A study of Mus musculus with 32 samples.

Results

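The autosomal peaks of histone H3K9 trimethylation (H3K9me3) in Morc1 heterozygous (het) male germ cells were compared between the fetal stage E16.5, named for its day of gestation, and the day of birth (P0). All peaks on the 19 autosomes entered, 74722 at E16.5 and 82082 at P0, which made 156804 of the 581860 autosomal peaks in the 8 peak lists of the series. A peak was kept where a peak of the other stage overlapped it by 1 bp or more. A P0 peak with no E16.5 peak was new, and an E16.5 peak with no P0 peak was gone. Both groups carried 1 intact copy of Morc1, a germ cell ATPase gene needed for transposon silencing, and the Mvh-Venus transgene, a germ cell reporter. Mvh is another name of Ddx4, a germ cell gene that recurs below. The knockout (KO) groups of the same stages lacked both copies of Morc1. The labels give the transgene in 1 protocol for both genotypes and all stages, and its copy number in no group. The strain background is not given in the sources used here. Each group had 2 H3K9me3 samples by its labels and 1 peak list of coordinates alone, so no value below has a replicate error, and the read depth behind the lists is unknown. The lists hold no expression values, so the germ cell identity of the cells was not checked against marker genes. All coordinates are of mouse build mm10 (GRCm38). The stages before and after, E13.5 and P3, are used for context, and values said to be in stage order run through E13.5, E16.5, P0 and P3.

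H3K9me3 is a mark of constitutive heterochromatin, laid down by the methyltransferases SETDB1 and SUV39H1/2 and bound by HP1 proteins. It lies over transposable elements, pericentromeric repeats, imprinted regions and clusters of tissue-specific gene families. Between mid-gestation and birth male germ cells are gonocytes (prospermatogonia). They stop dividing, regain DNA methylation over most of the genome and silence transposons through the piRNA pathway.

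The 300-base promoter windows of 5 genes, from 250 bases before to 50 bases after a RefSeq gene start (GRCm38.p6), are shown because each lay wholly inside a peak at 1 of the 2 stages and outside all peaks at the other. They were chosen after their values were seen. Capitals mark CG dinucleotides, the sites of DNA methylation. The first 2 windows were covered at E16.5 only: Klrk1 (chr6:129623815-129624114, minus strand), which encodes an activating receptor of natural killer cells, and Nlrp5 (chr7:23385639-23385938, plus strand), which encodes an oocyte protein needed by the early embryo. The others were covered at P0 only: Klrb1b (chr6:128826259-128826558, minus strand), which encodes another natural killer cell receptor, the zinc finger gene Zfp958 (chr8:4612920-4613219, plus strand), and Dmrtc2 (chr7:24869807-24870106, plus strand), which encodes a DM-domain factor of male meiosis.
Klrk1: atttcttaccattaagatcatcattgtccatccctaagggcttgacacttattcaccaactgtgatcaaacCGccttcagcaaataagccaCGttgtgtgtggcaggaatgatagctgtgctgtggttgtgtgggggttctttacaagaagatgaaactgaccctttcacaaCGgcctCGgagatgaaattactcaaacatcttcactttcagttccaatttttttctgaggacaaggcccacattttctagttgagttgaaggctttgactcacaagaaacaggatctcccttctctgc
Nlrp5: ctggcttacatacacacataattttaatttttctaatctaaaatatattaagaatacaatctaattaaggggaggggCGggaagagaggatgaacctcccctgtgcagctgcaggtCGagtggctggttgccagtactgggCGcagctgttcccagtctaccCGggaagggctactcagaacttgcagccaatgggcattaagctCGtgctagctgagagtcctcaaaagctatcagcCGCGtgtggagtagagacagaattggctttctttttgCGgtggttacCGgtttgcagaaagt
Klrb1b: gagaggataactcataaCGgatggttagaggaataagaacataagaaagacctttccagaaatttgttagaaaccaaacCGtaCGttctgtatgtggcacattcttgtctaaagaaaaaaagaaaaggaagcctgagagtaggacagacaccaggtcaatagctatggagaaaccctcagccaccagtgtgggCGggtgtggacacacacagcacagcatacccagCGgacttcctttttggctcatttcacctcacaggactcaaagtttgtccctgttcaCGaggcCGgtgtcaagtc
Zfp958: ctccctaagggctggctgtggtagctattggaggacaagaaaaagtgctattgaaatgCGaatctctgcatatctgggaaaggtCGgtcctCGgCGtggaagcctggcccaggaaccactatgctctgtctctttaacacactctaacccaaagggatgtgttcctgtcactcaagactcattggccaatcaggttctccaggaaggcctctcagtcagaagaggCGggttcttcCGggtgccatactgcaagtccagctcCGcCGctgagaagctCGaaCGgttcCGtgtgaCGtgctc
Dmrtc2: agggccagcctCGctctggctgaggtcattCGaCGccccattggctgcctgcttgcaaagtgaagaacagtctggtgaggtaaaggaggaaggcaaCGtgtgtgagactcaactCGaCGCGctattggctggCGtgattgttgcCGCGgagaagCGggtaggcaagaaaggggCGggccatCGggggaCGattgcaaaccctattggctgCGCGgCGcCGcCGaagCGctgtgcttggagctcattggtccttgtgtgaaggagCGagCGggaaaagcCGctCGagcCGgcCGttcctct
In the Klrk1 window the E16.5 KO, P0 KO and P3 KO lists held 300, 300 and 233 bases. Before E16.5 it was wholly covered in het and had 0 bases in KO, and at P3 it had 0 in het. The Nlrp5 window was wholly covered at E13.5 and E16.5 in both genotypes and at no later stage in either. Klrb1b and Zfp958 were covered in the P0 het list alone of the 8. Dmrtc2 was wholly covered at E13.5 in het and KO and at P0 in het, and had 0 covered bases in the other lists.

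Between E16.5 and P0, H3K9me3 peaks covered slightly more of the genome and changed place at their edges and among short peaks. The covered length was 293 Mb at E16.5 and 309 Mb at P0, a ratio of 1.06. The ratio was above 1 on 18 of 19 autosomes and ranged from 0.979 on chromosome 15 to 1.17 on chromosome 13. Of the E16.5 peaks, 16281 were gone at P0, a share of 21.8% (95% Wilson interval 21.5 to 22.1%, counting error only). New peaks numbered 23389, 28.5% of the P0 peaks (28.2 to 28.8%). When the longest 74722 peaks of each list were compared, the shares came to 25.02% gone and 25.04% new. Lists of equal number give near-equal shares unless breaking and uniting differ. The match therefore shows nothing about the excess of new over gone peaks. Base pairs present at both stages came to 223 Mb, 76.2% of the E16.5 and 72.2% of the P0 length. Gone peaks held 26.7 Mb and new peaks 41.9 Mb. A further 42.8 Mb was lost and 44.0 Mb gained inside kept peaks. Turnover at the edges and in the interior of kept peaks was thus as large as that by whole peaks.

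Gone and new peaks were short. Their median lengths were 1269 and 1370 bp, against 2963 bp for kept peaks at E16.5 and 3249 bp for kept peaks at P0. The most common length, 1001 bp, was also the shortest. Of the E16.5 peaks at that length 55.0% were gone, as were 35.5% of longer ones under 2 kb, 6.48% of those of 3 to 5 kb and 0.239% of those of 20 kb or more. New peaks made up 63.6% of P0 peaks at the shortest length, 12.1% of those of 3 to 5 kb and none of the 787 of 20 kb or more. The plot of peak fate by length shows both gradients. The lists give no peak height, so the part of the calling threshold in them was not tested.

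**Figure D1:**
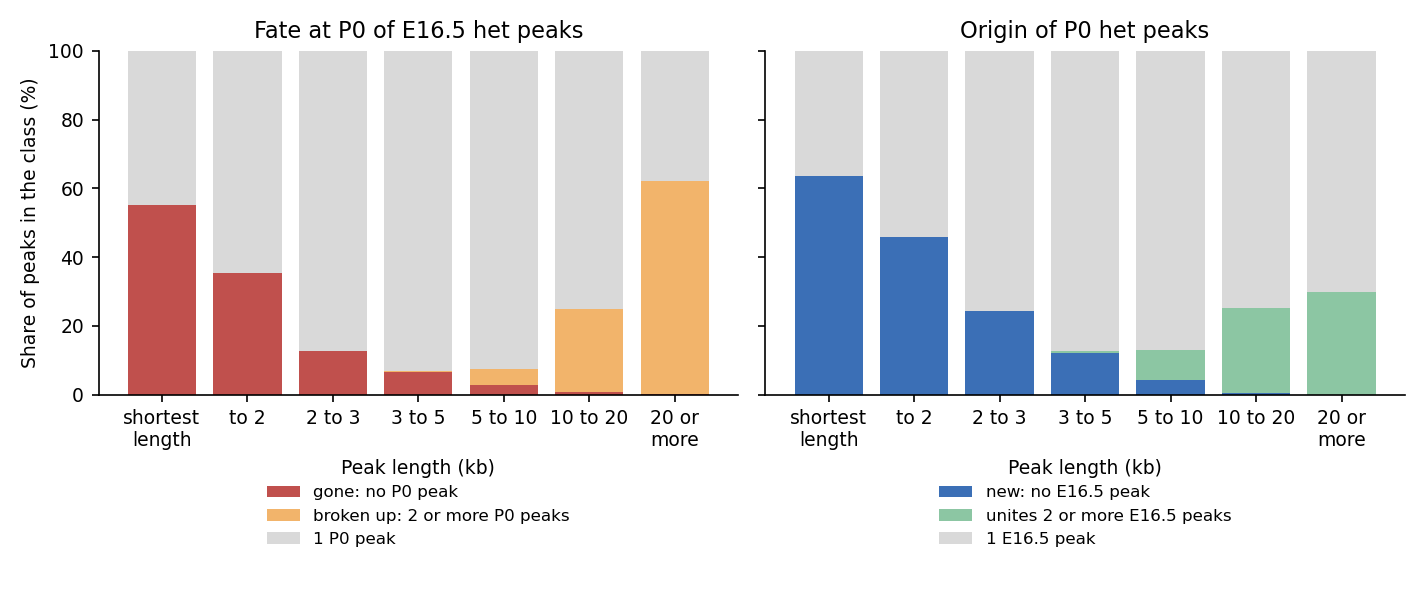
Share of het peaks (%, y axis) in each class of peak length (kb, x axis) by fate at P0 (left, E16.5 peaks) and by origin (right, P0 peaks). Gone and new peaks crowd the short classes (55.0% and 63.6% at the shortest length), and breaking up crowds the longest (62.0% of E16.5 peaks of 20 kb or more).

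Kept peaks matched 1 to 1 changed little in length on balance. The 51392 such pairs had a median P0 to E16.5 length ratio of 1.01, with 53.1% wider at P0 and a median absolute change of 578 bp. At least doubled in length were 4227 pairs (8.23%), and 2614 (5.09%) were halved or less. By E16.5 length the median ratio was 1.55 at the shortest length and between 0.973 and 1.01 in every class from 2 kb up. Taken by P0 length, the same pairs gave 0.716 at the shortest length and 1.08 at 3 to 5 kb. The shortest peaks of either list could only differ in 1 direction, so the first class is no measure of spreading.

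The most widened kept peak lay between Kbtbd3 and Msantd4 on chromosome 9. It measured 1.001 kb at E16.5 (chr9:4369878-4370878) and 19.5 kb at P0 (chr9:4352958-4372438). At P3 the het list held 13.3 kb of that P0 span, whereas KO peaks of P0 and P3 held 3.40 and 2.60 kb. A peak inside Phf14, which encodes a PHD finger chromatin protein, measured 2.71 kb at the earlier and 19.2 kb at the later stage (chr6:12090501-12109702), and 11.9 kb of it was in P3 het peaks. The KO lists held 1.94 to 2.71 kb of that span at every stage. A peak between Pom121l12 and Vstm2a went from 2.63 to 18.5 kb (chr11:15581508-15600010), of which the P3 het list held 5.07 kb and the P0 KO list 1.001 kb. Each of these P0 spans thus had more of its length in P3 het peaks than in P0 KO peaks.

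The most narrowed kept peaks ran the other way. A 34.6 kb E16.5 peak between Fstl5 and Rapgef2 (chr3:76915009-76949607) was 4.65 kb at P0. The E16.5 KO list held 30.6 kb of it, and the E13.5 het list 4.88 kb. A 25.2 kb peak between Nxph1 and Ndufa4 (chr6:9532202-9557428) was 2.502 kb at P0. A 22.3 kb peak in Klri2, a natural killer cell receptor gene (chr6:129733008-129755275), was 1.001 kb at P0. In E13.5 het these 3 spans held 4.88, 1.001 and 2.53 kb, so in het each was wide at E16.5 and short both before and after. They were picked as the most narrowed after E16.5, and the E13.5 het list covers 160 Mb against 293 Mb at E16.5. In KO the Fstl5 span held 4.26, 30.6, 8.64 and 5.60 kb in stage order. The Nxph1 span held 2.79, 13.47, 8.57 and 4.02 kb, again with most at E16.5. The Klri2 span held 17.5, 16.8, 9.67 and 2.002 kb in KO, so there it was already wide before E16.5.

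Long domains broke up. Of the E16.5 peaks, 2211 (2.96%) overlapped at least 2 P0 peaks, and 2486 P0 peaks (3.03%) united at least 2 E16.5 peaks. Among the 1254 E16.5 peaks of 20 kb or more, 778 were broken (62.0%, 59.3 to 64.7%), 473 (37.7%) met a single P0 peak and 3 were gone. Those that met 1 P0 peak were covered over 93.3% of their length at P0, those met by 2 pieces over 79.1%, those met by 3 over 69.1% and those met by 4 or more over 70.7%. In the same step the KO lists broke 576 of 1049 such peaks (54.9%, 51.9 to 57.9%). The difference between genotypes was not tested. Of the 787 P0 peaks of 20 kb or more, 236 (30.0%) united E16.5 peaks. At 10 to 20 kb 23.9% of E16.5 peaks were broken and 24.7% of P0 peaks united E16.5 peaks. In the next het step, P0 to P3, 466 of 787 peaks of 20 kb or more were broken (59.2%), so breaking was not particular to this step. Peaks picked for their length at 1 stage tend to be shorter at the other, and the part of this choice was not tested. In stage order the het lists held 675, 1254, 787 and 436 peaks of 20 kb or more, so E16.5 was the stage with the most. The KO lists followed the same order, with 809, 1049, 860 and 555.

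The openings were narrow. Inside broken E16.5 peaks 2886 gaps appeared, with a median of 2678 bp, a longest of 20355 bp and a sum of 9.59 Mb. Uniting P0 peaks bridged 2634 gaps with a median of 2180 bp and a sum of 6.78 Mb. In broken peaks of 20 kb or more, 6.76 Mb was lost and 19.5 Mb retained. Of the retained length 82.7% had been in E13.5 het peaks, and of the lost length 45.4%. The P0 KO list held 95.1% of the retained and 32.3% of the lost length, and the P3 het list held 81.1% and 11.4%. Most of the retained length was thus in peaks at E13.5 and, separately, at P3, and most of the lost length was outside peaks at P3. Windows of 1 Mb were ranked by their share of protein-coding gene bodies and put into 4 groups of like size. The gene-poorest group held 923 of the 1254 long peaks, and 65.9% of those were broken, against 45.8%, 60.6% and 55.8% in the other groups in order of rising gene share. In the gene-poorest group the covered length at P0 was 0.958 times that at E16.5 in het. In the other groups the het ratios were 1.13, 1.15 and 1.14, and the KO ratios of the 4 groups were 1.04, 1.28, 1.38 and 1.43.

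The 3 E16.5 peaks broken into most pieces met 9 P0 peaks each. A 104 kb domain across Fpr-rs6, a formyl peptide receptor gene, and Vmn2r105, a pheromone receptor gene (chr17:20160580-20264893), retained 78.6% of its length. An 85.2 kb domain between Igfbp7 and Adgrl3 (chr5:78733931-78819113) retained 56.5%, and a 21.1 kb peak elsewhere in the same gene desert (chr5:78949726-78970862) was gone. The third, 84.5 kb across Ddx4 and Slc38a9 (chr13:112628755-112713278), retained 29.3%. In the opposite direction, a P0 peak of 27.3 kb between Flrt2 and Galc (chr12:96890593-96917851) and peaks of 18.7 kb between Pcmtd1 and Sntg1 (chr1:7741431-7760148) and between Slc39a10 and Tmeff2 (chr1:49753171-49771915) each united 4 E16.5 peaks. The E16.5 pieces covered 57.2%, 52.0% and 54.9% of these P0 peaks.

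The Ddx4 and Slc38a9 region stood apart in the lists by more than stage. Ddx4 encodes the RNA helicase that marks the germ line, and Slc38a9 encodes a lysosomal amino acid sensor. Of the 54.3 kb Ddx4 body, peaks held 50.03, 49.97, 11.7 and 50.2 kb in het in stage order, and 47.5, 6.79, 12.2 and 27.5 kb in KO. The 82.6 kb Slc38a9 body had 55.5, 57.1, 10.8 and 55.3 kb in het and 55.3, 13.55, 17.5 and 37.4 kb in KO. In 4 lists (both of E13.5, E16.5 het and P3 het) the Ddx4 body was thus covered over 47.5 kb or more, and in the other 4 over 27.5 kb or less, in no order of stage or genotype. The region holds the gene whose name the Mvh-Venus transgene bears. Whether reads of transgene DNA, or the number of transgene copies in the animals of each group, took part in these peaks was not tested.

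**Figure D2:**
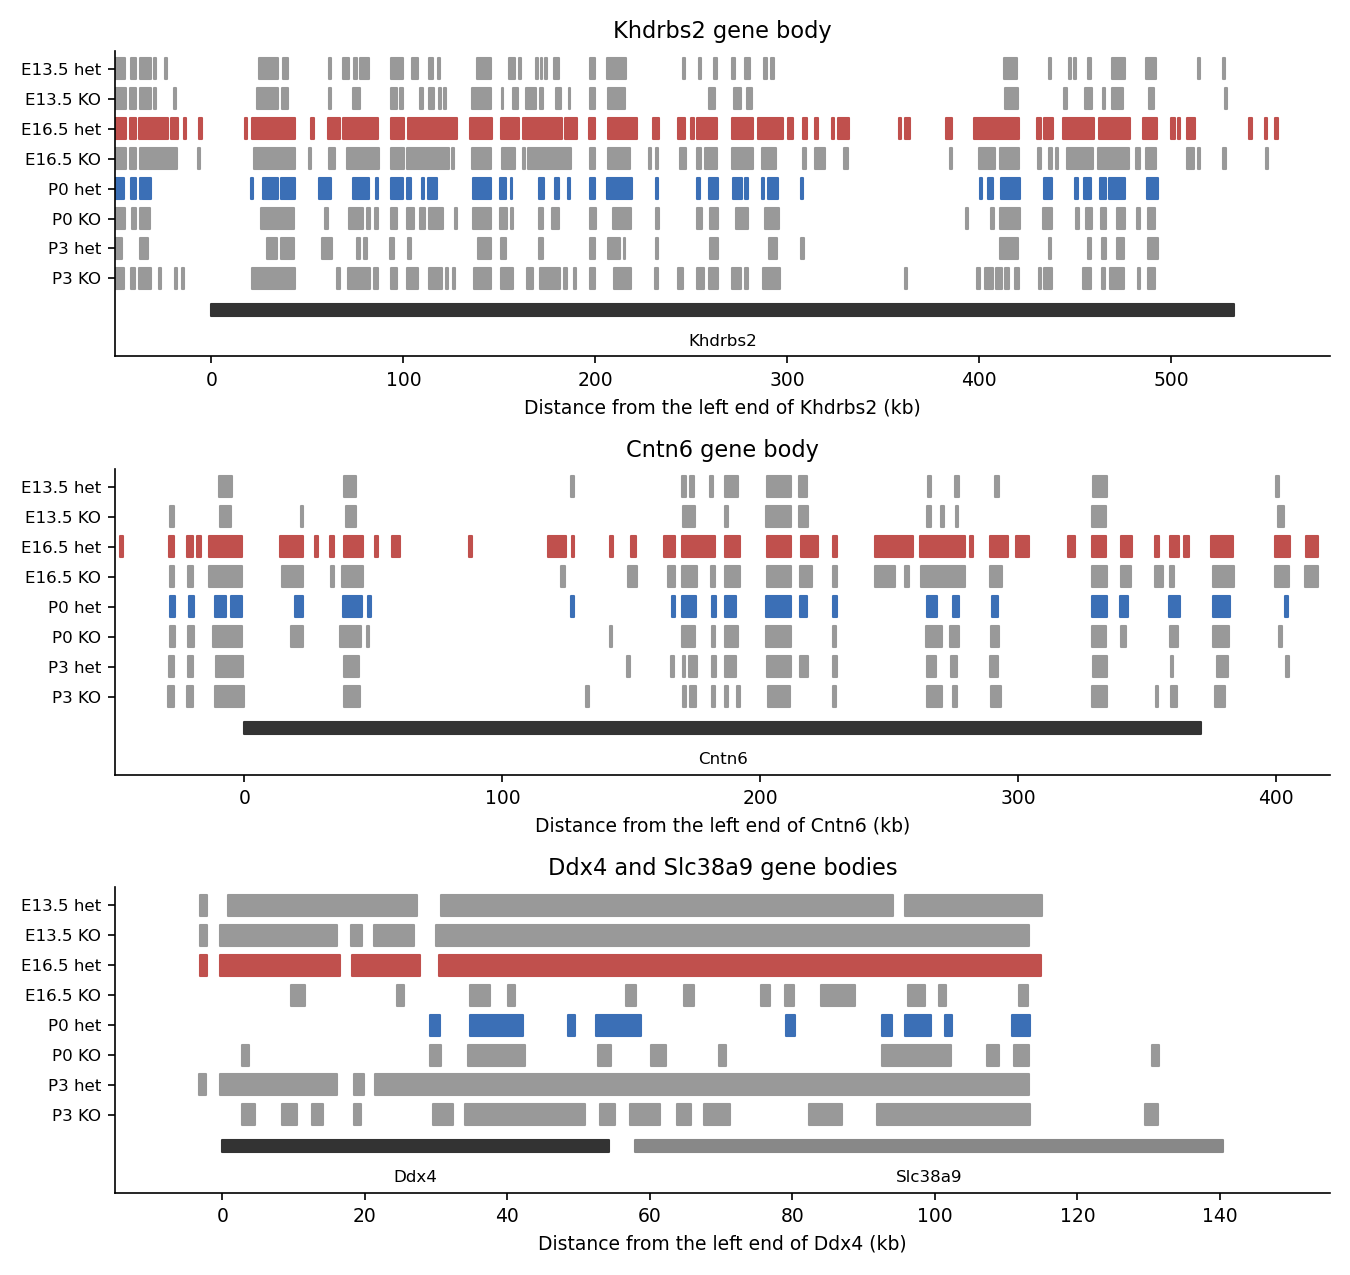
Peaks of the 8 lists (bars) along 3 regions, with distance from the left end of the named gene (kb, x axis) and gene bodies as dark bars. In Khdrbs2 and Cntn6 the wide E16.5 het peaks (red) were replaced by shorter P0 het peaks (blue), with totals of 286 to 142 kb and 141 to 60.6 kb, and over Ddx4 and Slc38a9 the near-continuous coverage of E13.5, E16.5 het and P3 het was absent from P0 het.

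The longest new peaks lay outside gene bodies. The longest, 13.53 kb, lay 34.2 kb from Gria4, an AMPA receptor subunit gene, on the side of Casp1 (chr9:4830460-4843992). The P3 het list held 10.4 kb of it and the P0 and P3 KO lists 3.34 and 2.66 kb. Others were 11.9 kb between Zdbf2, an imprinted gene, and Adam23 (chr1:63321912-63333795), 11.9 kb between Rgmb and Zfp960 (chr17:16730654-16742521), 11.8 kb between Nectin3 and Dppa4 (chr16:47068351-47080130) and 11.6 kb between Nsmce1 and Il4ra (chr7:125503170-125514742). P3 het held 10.8, 5.18, 7.58 and 8.13 kb of these. P0 KO held 4.13, 2.56, 0 and 1.99 kb.

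The longest gone peak, 23.3 kb, lay 84.5 kb from Ndn in the imprinted Prader-Willi region between Snrpn and Ndn (chr7:62240571-62263826). E13.5 het held 17.0 kb of it, and P0 KO still held 8.69 kb. A 22.4 kb peak in the desert between the cadherin genes Cdh8 and Cdh11 was gone (chr8:101122187-101144610), as was an 18.5 kb peak across Klrk1 (chr6:129612659-129631125). Of the Klrk1 peak, E16.5 KO peaks held 16.8 kb, those of P0 KO 7.48 kb and those of P3 het 1.60 kb. The last of the 5 longest gone peaks, 16.8 kb, lay in Ddx4 (chr13:112598042-112614808), and 16.3 kb of it was in P3 het peaks.

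New peaks were mostly shared with other lists of P0 and P3 and rarely with embryonic ones. Of the new peaks 71.4% overlapped a P0 KO peak, 58.5% a P3 het peak and 56.7% a P3 KO peak. Only 5.51% overlapped an E13.5 het peak, 7.9% an E16.5 KO peak. New peaks lack an E16.5 het peak by definition. The E13.5 het list is also smaller, with 50191 peaks over 160 Mb against 89020 over 324 Mb in P0 KO. In P0 KO and P3 het together were 10322 new peaks (44.1%), and 2760 (11.8%) were in none of the other 6 lists. A set of 3370 (14.4%) was in P3 het and not in P0 KO. Their median length was 2150 bp, against 1569 bp for those in both. For the 2591 new peaks of 3 kb or more, the share in P3 het was 85.8% and that in P0 KO 58.5%, the reverse of the order over all new peaks.

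Gone peaks were found less often in the KO list of their own stage than new peaks were (71.4%), but that list is smaller. The E16.5 KO list has 70487 peaks over 269 Mb, and that of P0 KO 89020 over 324 Mb. Of the gone peaks 61.0% overlapped an E16.5 KO peak, 24.0% an E13.5 het peak and 31.1% a P0 KO peak. Shared with E16.5 KO and absent from P0 KO were 6015 (36.9%), while 3914 (24.0%) were present in both KO lists. In P3 het 2231 (13.7%) were found again. Of these 931 were also in E13.5 het, so that they were missing at P0 alone among the het stages, and 1300 were not. As the plot of overlap across the lists shows, P0 peaks with an E16.5 counterpart were in 95.1% of cases in P0 KO, 93.8% in E16.5 KO and 63.6% in E13.5 het. The het and KO lists of the same step differed in their totals: KO had 15.6% gone and 34.3% new peaks and a covered-length ratio of 1.21.

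**Figure D3:**
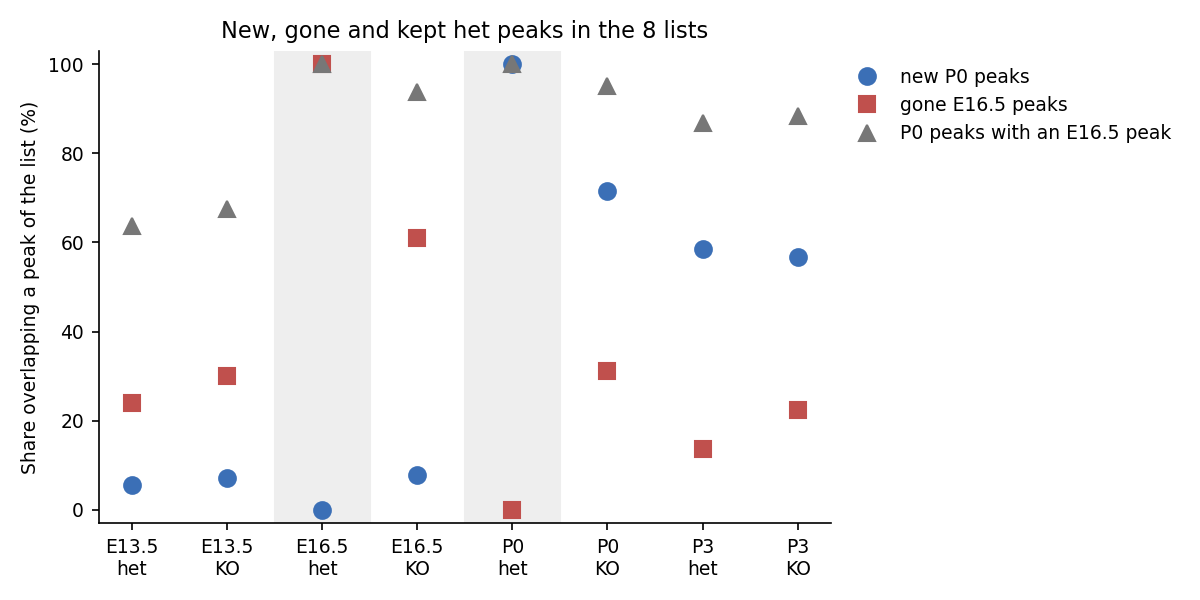
Share of new, gone and kept het peaks (%, y axis) that overlap a peak of each of the 8 lists (x axis), with grey bands at the lists that defined the classes. New peaks overlap other lists of P0 and P3 (71.4% in P0 KO, 58.5% in P3 het) far more often than embryonic ones (5.51% in E13.5 het, a smaller list).

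New and gone peaks lay in gene bodies more often than kept peaks. The midpoint was in a protein-coding gene body for 32.3% of new and 32.8% of gone peaks, against 23.0% and 23.2% of kept peaks at P0 and E16.5. Gene bodies made up 41.0% of the autosomal span. Among peaks of 5 kb or more the shares were 19.97% for new and 19.3% for gone peaks, and 14.2% and 14.6% for kept ones. The difference had the same direction in all 4 length classes and was not tested, with 1 list per stage. New peaks lay a median of 10.5 kb from the nearest E16.5 peak, 25.7% of them within 5 kb.

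Over gene bodies, gains outnumbered losses. Of 20661 autosomal protein-coding genes 8304 had a peak in their body at either stage. A gene was called gained or lost where its covered length differed at least 2-fold and by at least 2 kb. Gained genes numbered 800 (9.63% of the 8304) and lost genes 490 (5.9%). With the longest peaks in equal numbers there were 720 and 587. In gained genes the summed covered length went from 1.32 to 4.95 Mb, and 365 had none at E16.5. In lost genes it went from 3.31 to 1.00 Mb, and 213 had none at P0. Over all 8304 genes the median change was 0.202 kb. In KO 1765 of 8922 genes (19.8%) gained and 201 (2.25%) lost. Of the het gains 726 (90.8%) had a change of the same direction in KO and 565 were called there too. Of the het losses 372 (75.9%) had the same direction, 126 were called lost and 17 were called gained in KO. Of the 7014 genes called neither in het, 4773 were higher at P0 in KO and 1465 (20.9%) lower. The shares for gains and losses thus have unlike backgrounds.

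**Figure D4:**
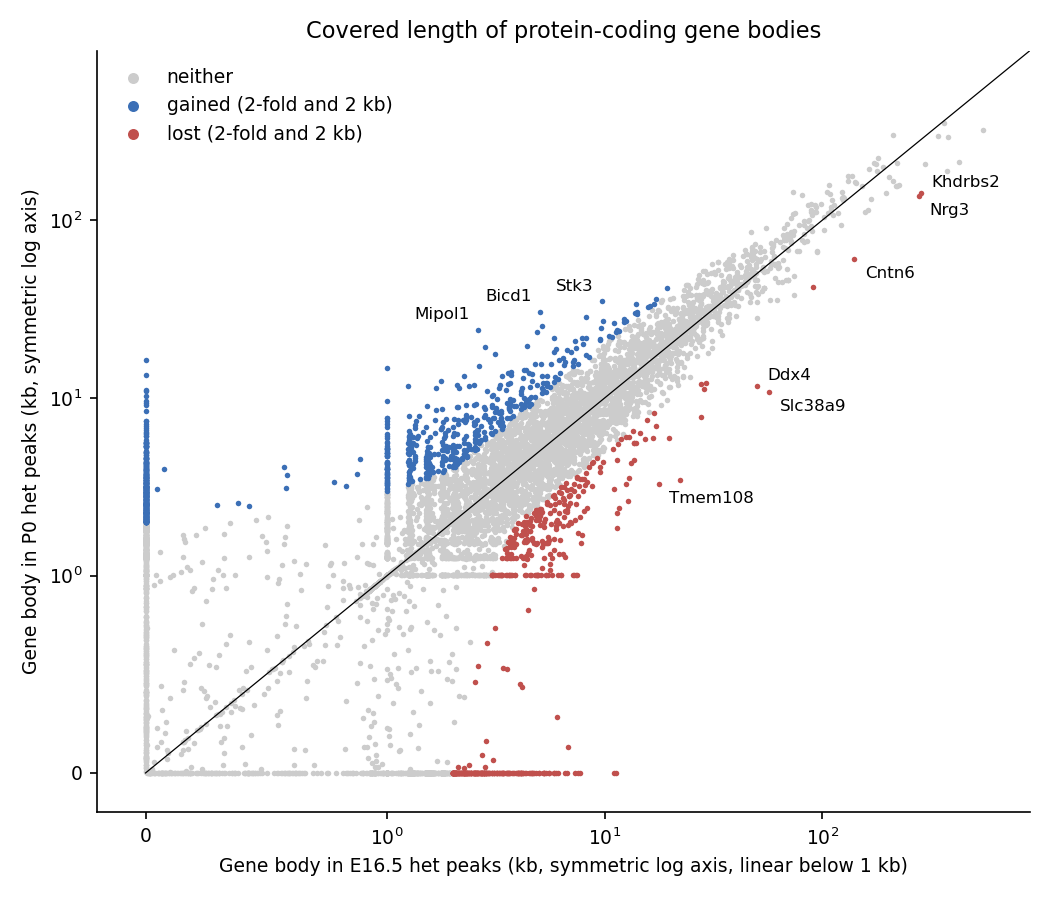
Length of each protein-coding gene body inside het peaks at E16.5 (x axis, kb) and at P0 (y axis, kb), both on a symmetric log axis that is linear below 1 kb, with genes gained and lost by the 2-fold and 2 kb rule in colour. The 800 gained genes include Bicd1, Stk3 and Mipol1, and the losses of most base pairs among the 490 lost genes are in long genes such as Khdrbs2, Nrg3 and Cntn6.

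The largest gains were in long genes of varied function, none of them covered over much of its body. Bicd1, which encodes a dynein cargo adaptor (chr6:149408824-149563329), had 5.52, 5.02, 30.6 and 28.7 kb in peaks in het, in stage order. In KO it had 5.58, 6.88, 15.5 and 14.2 kb. Stk3, the Hippo pathway kinase gene also known as Mst2 (chr15:34875499-35155882), had 8.72, 9.68, 34.9 and 35.3 kb in het and 7.66, 8.47, 26.7 and 34.3 kb in KO. Mipol1 had 0, 2.63, 24.2 and 26.8 kb in het and 0, 2.73, 19.3 and 21.3 kb in KO. In each of these genes the step fell between E16.5 and P0 in both genotypes, and in KO the value of Stk3 was higher again at P3. Slc4a10, a bicarbonate transporter gene, went from 19.4 to 41.6 kb in het. Plcl1, a catalytically inactive phospholipase C relative, went from 8.19 to 28.5 kb, Pid1, an adaptor of insulin signalling, from 5.15 to 25.3 kb, and Vps13b, a lipid transfer protein gene, from 13.9 to 33.7 kb. Eml6, a microtubule-binding protein gene, went from 17.3 to 36.1 kb, and Slc35f4 from 4.89 to 23.4 kb. Pkd1l1, which encodes a sensor of left-right asymmetry, went from 9.78 to 26.9 kb, Adgre4, an adhesion receptor gene of myeloid cells, from 16.8 to 33.7 kb, and Gphn, which encodes the scaffold of inhibitory synapses, from 16.1 to 32.9 kb. All 12 had more covered length at P0 than at E16.5 in KO as well.

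The largest losses included long neural genes and the Ddx4 and Slc38a9 pair described above. Khdrbs2, which encodes a neural splicing factor (chr1:32172602-32705224), had 100.5, 286, 142 and 77.8 kb in het in stage order, and 97.5, 235, 136 and 162 kb in KO. Nrg3, which encodes a neuregulin ligand of ErbB4 (chr14:38365102-39473235), had 84.9, 279, 137 and 98.7 kb in het and 122, 182, 167 and 127 kb in KO. Cntn6, a contactin of axons (chr6:104492662-104863406), had 35.7, 141, 60.6 and 46.9 kb in het and 32.9, 97.9, 59.9 and 45.5 kb in KO. In each of these genes het coverage had its highest value at E16.5 and was above that of KO there, and P0 values of the genotypes were closer. Zbbx went from 90.5 to 41.9 kb, Myrip, a myosin and Rab linker gene, from 29.2 to 12.2 kb, and Tmem108 from 17.8 to 3.27 kb. Vmn2r94, a pheromone receptor gene, went from 27.6 to 7.77 kb, Slco6c1, an organic anion transporter gene of the testis, from 28.7 to 11.2 kb, and Cylc2, a sperm head cytoskeleton gene, from 27.7 to 11.9 kb. With Slc38a9 and Ddx4 these were among the 12 losses of most base pairs. Of the genes named here, all but Slc38a9 and Ddx4 also had less at P0 than at E16.5 in KO.

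The gene lists are read against the shares over all 8304 genes, 9.63% gained and 5.9% lost. Among germ cell and meiosis genes 13 of 32 had a peak, and 5 of the 13 were gained (38.5%) and 1 lost (7.69%). The lost gene was Ddx4, which carried most of the list's E16.5 length. Tex14, of the germ cell bridges, went from 0 to 5.54 kb. Sycp1, of the central synaptonemal complex, went from 3.67 to 8.45 kb, and Majin, of the telomere attachment complex, from 1.28 to 5.13 kb. Hormad2, of the unsynapsed axis, went from 1.001 to 4.33 kb, and Smc1b, the meiotic cohesin subunit, from 0 to 2.48 kb. In KO, Sycp1, Majin and Hormad2 went from 2.27 to 7.26, from 1.26 to 6.89 and from 1.28 to 6.27 kb, and Smc1b was at 0 at both stages. The summed length of the list went from 72.0 to 56.9 kb with Ddx4 and from 22.03 to 45.2 kb without it, so Ddx4 set the direction. None of the 29 promoter windows of this list was covered at only 1 of the 2 stages.

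The piRNA pathway list had 13 of 20 genes with a peak and a median change of -0.843 kb. It had no gain and 1 loss (7.69%), against 9.63% and 5.9% of all genes, so the lost share was near that of genes in general. The loss was Mael, which encodes a factor of nuclear transposon silencing, which went from 4.17 to 0 kb in het and from 3.74 to 0 kb in KO. Mov10l1, the piRNA helicase gene, had 15.7 and 15.1 kb. Of the machinery of H3K9 and DNA methylation, 12 of 26 genes had a peak and 3 of the 12 were gained (9.63% of all genes were), namely Setdb2 (0 to 2.76 kb), Kdm4c (1.82 to 4.52 kb) and Kdm4a (0 to 2.10 kb). Setdb2 encodes a methyltransferase of the SETDB family, and the Kdm4 genes encode H3K9 demethylases. Morc1 itself went from 1.62 to 3.47 kb in het, and had 0 at both stages in KO.

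Of spermatogonial stem cell genes 7 of 17 had a peak and 2 were gained (28.6%, against 9.63% of all genes). Gfra1, the GDNF co-receptor gene, went from 2.70 to 5.76 kb, and Foxo1, a factor of stem cell maintenance, from 0 to 2.03 kb. Zbtb16, which encodes PLZF, had 7.74 and 7.95 kb. Only 1 of 13 pluripotency and primordial germ cell genes had a peak at either stage, Prdm1, with 0 and 1.86 kb. Somatic testis markers were called once in each direction (7.14% each) among 14 of 24 with a peak. Fshr, the Sertoli cell hormone receptor gene, had 10.3 and 19.2 kb. Ptprc, a leukocyte marker, was gained from 2.42 to 5.19 kb, and Dhh, a Sertoli cell signal, was lost from 2.72 to 0 kb. The imprinted list had 16 of 26 genes with a peak and no call, while Snrpn went from 211.8 to 165.3 kb and Kcnq1 from 50.5 to 42.7 kb.

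Clustered protocadherin genes, which encode neuronal adhesion proteins from 3 tandem arrays on chromosome 18, had less covered length at P0 in 45 of 46 genes with a peak and more in 0. The last, Pcdhac2, had 1.001 kb at both stages. Lost by the rule were 12 (26.1%, against 5.9% of all genes). However, 11 of these were Pcdhg genes whose nested bodies share the same 2.002 kb of E16.5 peaks. Each array was therefore taken as 1 span. The Pcdha array (chr18:36930285-37188897) had 84.2, 74.2, 48.5 and 40.9 kb in het in stage order, and 83.7, 72.6, 60.0 and 51.2 kb in KO. The Pcdhb array (chr18:37264998-37521419) had 125, 112, 70.5 and 61.7 kb in het and 122, 110, 78.3 and 63.8 kb in KO. The Pcdhg array (chr18:37661775-37841873) had 40.9, 6.24, 3.76 and 3.003 kb in het and 25.4, 3.81, 6.64 and 2.51 kb in KO. The Pcdha and Pcdhb values were lower at each later stage in both genotypes, and the Pcdhg array had its largest drop before E16.5.

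Long neural adhesion and synapse genes had a peak in 46 of 49 cases. The list had 1 gain (2.17%) and 2 losses (4.35%), against 9.63% and 5.9% of all genes. Its summed length went from 4568 to 4296 kb. The sum hid opposite changes. Csmd1, a brain complement regulator gene, went from 551 to 323 kb. Dpp10, which encodes a potassium channel partner, went from 425 to 214 kb, and Ptprd, a synaptic receptor phosphatase gene, from 297 to 209 kb. Cntn5, another contactin gene, went up from 107 to 158 kb. Fhit, a fragile-site gene placed in the list for its length, went from 181 to 225 kb, and Macrod2 from 137 to 178 kb. Of the 46 genes 30 had more covered length at P0, and the median change was 4.24 kb. In KO Csmd1 went from 387 to 403 kb and Dpp10 from 354 to 285 kb, so E16.5 het lay above E16.5 KO in both.

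Zinc finger (Zfp) genes were called in both directions, 16 gained and 14 lost among 167 of 388 with a peak, shares of 9.58% and 8.38%. Over all genes the shares were 9.63% and 5.9%, so the gained share was that of genes in general. Zfp950 went from 0 to 13.49 kb, Zfp457 from 0 to 10.2 kb and Zfp654 from 0 to 6.07 kb, while Zfp62 went from 5.99 to 0 kb. At P0 KO Zfp950 and Zfp457 had 3.70 and 2.31 kb. Zfp62 was at 0 at P0 in KO too and back at 6.34 kb in P3 het. Cytochrome P450 genes of the Cyp2, Cyp3 and Cyp4 families, which metabolise steroids, fatty acids and drugs, were gained in 5 of 53 cases (9.43%), close to the 9.63% of all genes, and lost in 0. The gains included Cyp4f17 (0 to 5.35 kb) and Cyp4a32 (3.24 to 8.36 kb), and all 5 were Cyp4 genes.

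Olfactory receptor genes had a peak in 430 of 1104 cases. Of these 337 have a body under 2 kb and could not pass the rule. The list had 3 gains (0.698%) and 10 losses (2.33%), against 9.63% and 5.9% of all genes. Covered length was lower at P0 in 140, higher in 91 and equal in 199, with sums of 643 and 581 kb. Vomeronasal type 1 receptor genes had 80 of 230 with a peak, 67 of them under 2 kb, and were lower in 23, higher in 16 and equal in 41. Type 2 receptor genes, which are longer, had 84 of 122 with a peak, 2 gained (2.38%) and 4 lost (4.76%). Defensin genes had a peak in 18 of 70 cases with 1 loss (5.56%), close to the share of all genes. Placental Prl, Psg and Ceacam genes had a peak in 34 of 53 with 3 losses (8.82%) and no gain, and Hox genes in 1 of 39.

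Lectin-like receptor genes of natural killer cells (Klr and Clec2) were lost in 5 of 28 cases (17.9%) and gained in 2 (7.14%), against 5.9% and 9.63% of all genes. Klrk1 had 6.09, 11.2, 0 and 0 kb in het in stage order, while in KO it went from 10.1 to 4.04 kb between E16.5 and P0. Klri1 went from 12.7 to 2.62 kb and Klri2 from 7.48 to 1.001 kb. The gone peak across Klrk1 (chr6:129612659-129631125) and the narrowed peak in Klri2 (chr6:129733008-129755275) lie close together. These losses are therefore not independent cases. Klrb1, of the same gene group as Klrb1b, was gained from 2.12 to 8.85 kb. The Serpin list, of protease inhibitor genes, had 3 losses (12.5%) and 1 gain (4.17%) among 24 with a peak, against 5.9% and 9.63% of all genes. Serpinb6e had all of its 11.1 kb covered at E16.5 and 0 at P0. Serpinb1c on the same chromosome was gained from 11.3 to 23.4 kb. Nlrp and Obox genes, a list of oocyte and embryo genes, had 2 gains (11.8%, against 9.63% of all genes) and no loss among 17 with a peak. Nlrp5 went from 49.9 to 28.2 kb, a change short of 2-fold, although its promoter window shown above had no coverage at P0.

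**Figure D5:**
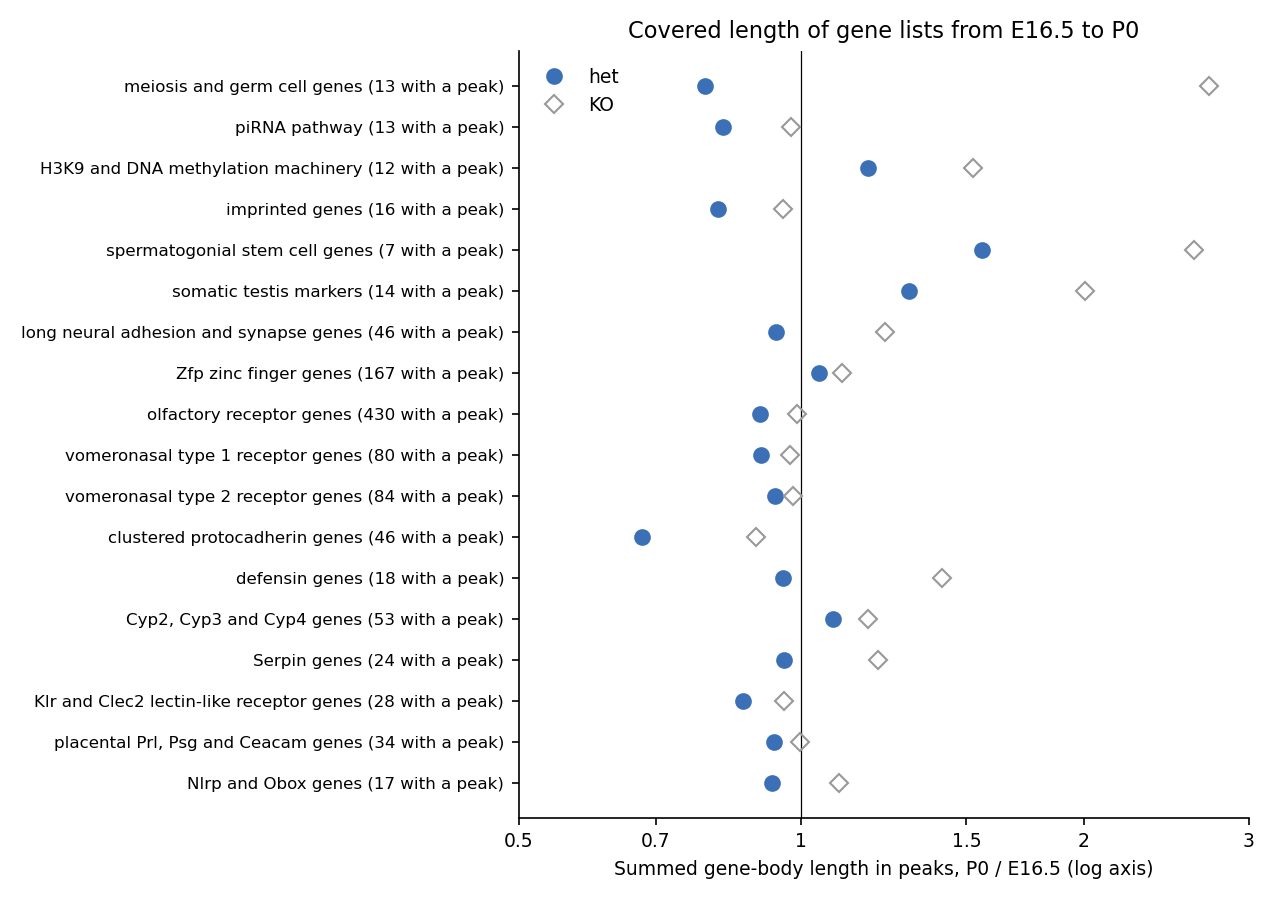
Ratio of summed gene-body length in peaks, P0 to E16.5 (x axis, log scale), for gene lists in het (filled) and KO (open); the Hox and the pluripotency lists, with 1 gene and 0 kb at 1 stage each, are not drawn. Of the lists drawn, clustered protocadherin genes lie lowest in het at 0.676, with 0.896 in KO. Their nested bodies count the same peaks several times, so neither value is a ratio of distinct base pairs. The het value of the meiosis list, 0.79, is 2.05 without Ddx4.

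At promoters, gained and lost windows differed in base composition. Of 20084 windows of 16456 genes, 639 touched a peak at both stages, 257 at E16.5 only (1.28%) and 285 at P0 only (1.42%). The median number of CG dinucleotides was 1 in windows covered at both stages, 2 in those covered at E16.5 only, 4 in those covered at P0 only and 15 in those covered at neither of these stages in het. Windows with 15 or more CG dinucleotides made up 2.82%, 8.56% and 20.4% of the first 3 classes and 48.1% of all windows. Such CG-rich windows covered at P0 only numbered 58. The letters TATAAA, searched on both strands, were found in 38.3%, 33.5% and 17.9% of the same 3 classes and in 12.7% of all windows. Part of the contrast lay in receptor genes, which gave 75 olfactory windows at E16.5 only and 32 at P0 only. Without olfactory and vomeronasal receptor genes the shares with 15 or more CG dinucleotides were 13.7% at E16.5 only and 23.2% at P0 only. Of the P0-only windows 61.8% were in P0 KO peaks and 41.4% in P3 het peaks. The 58 CG-rich ones were less often in other lists, with 15 (25.9%) in P0 KO and 4 (6.9%) in P3 het peaks, against 161 (70.9%) and 114 (50.2%) of the other 227. Most of the CG-rich windows covered at P0 only were thus in neither list. Of the E16.5-only windows 66.1% were in E16.5 KO peaks.

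Among 919 autosomal miRNA hairpins of RefSeq, 37 touched a peak at both stages, 18 at E16.5 only (1.96%) and 11 at P0 only (1.2%). The E16.5-only hairpins included 2 genomic clusters, so their mature sequences are given with the seed (bases 2 to 8) in capitals. Mir25, Mir93 and Mir106b, which lie in an intron of Mcm7, were together under a single E16.5 het peak (chr5:138165044-138166587). An E16.5 KO peak covered 0.463 of the 0.498 kb cluster, with 49 of the 84 bases of the Mir25 hairpin, and no list of another stage touched it.
mmu-miR-25-3p: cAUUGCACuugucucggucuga
mmu-miR-93-5p: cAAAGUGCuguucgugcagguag
mmu-miR-106b-5p: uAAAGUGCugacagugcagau
The last 2 share the seed AAAGUGC. The Mir344 hairpins lie in the imprinted Snrpn and Ndn region (chr7:61683124-62085310), where 13 hairpins span 402 kb. Of these 11 were in E16.5 het peaks and 7 in P0 het peaks. Between the E16.5 and P0 het lists, Mir344e, Mir344b, Mir344-2 and Mir344g were covered at E16.5 only. These hairpins were also wholly covered at E13.5 in het and KO and at E16.5 in KO. Mir344e was wholly covered in P0 KO as well.
mmu-miR-344e-3p: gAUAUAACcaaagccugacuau
mmu-miR-344b-3p: cAUUUAGCcaaagccugacugu
mmu-miR-344-3p: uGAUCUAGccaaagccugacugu
mmu-miR-344g-3p: cAGGCUCUagccaggggcuuga
mmu-miR-344d-3p: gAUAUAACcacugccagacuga
The miR-344d-3p sequence comes from hairpins covered at both stages and shares the seed AUAUAAC with miR-344e-3p. The mature miR-344-3p sequence is likewise given by Mir344, covered at both stages, and by Mir344-2. The covered length of the span in stage order was 360, 349, 338 and 298 kb in het, in 12, 16, 20 and 27 peaks. In KO it was 366, 351, 334 and 309 kb in 13, 14, 20 and 24 peaks. The region was thus divided into more peaks at each later stage in both genotypes, and hairpins fell into the openings.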

How the data were processed

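H3K9me3 ChIP-seq peak lists of isolated mouse gonocytes were used, 1 for each of the 8 groups of 2 samples. The authors deposited coordinates alone (a chromosome, start and end per peak, in 3 columns without a header), with no score, count or read depth. The submitters' processing notes name build mm10, bcl2fastq 2.20, cutadapt 1.18, Bowtie2 2.3.4.1, deepTools 3.5.0 and HOMER 4.10. Their roles, the peak-calling parameters, the control and the pooling of replicates are not given in the sources used here. No peak was shorter than 1001 bp and no gap shorter than 1499 bp in any list, so fine structure below these lengths is not resolved. H3 samples and the sex chromosomes were not used in the main comparison.

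Overlaps, lengths and Wilson intervals (95%) were computed in Python 3.11.15 with numpy 2.4.6, pandas 2.3.3 and scipy 1.17.1, and plotted with matplotlib 3.10.9. Neighbouring peaks are not independent, so intervals cover counting error only. With 1 list per group no test was run. Gene bodies, promoter windows and miRNAs came from RefSeq tables of GRCm38.p6, the assembly that mm10 names. Classes planted in simulated lists were all recovered.

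Named genes were the 12 with the largest gain and the 12 with the largest loss in base pairs past the 2-fold and 2 kb rule (predicted genes left out), genes at the longest new and gone peaks and at the most changed kept peaks, and up to 4 members per gene list. An item that the rule names is not reported here. The members and lists were chosen with earlier results of these data known. Other members and the printed promoters were chosen after their values were seen. Alternatives changed the overlap, length filter, list size, chromosomes and gene rule. Joining peaks under 3 kb apart and leaving out Ddx4 and Slc38a9 were added after seeing the data.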

Additional observations from a re-analysis of the deposited data

Results flagged for a closer look

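The covered length of Slc38a9 changed by -46.3 kb from E16.5 to P0 in het (57.1 to 10.8 kb) and by 3.95 kb in KO (13.55 to 17.5 kb). That of Ddx4 changed by -38.3 kb in het (49.97 to 11.7 kb) and by 5.37 kb in KO (6.79 to 12.2 kb). They were singled out because het and KO moved in opposite directions over the same step. Both genes lie in 1 region, so they count as 1 observation, and the E16.5 KO list already lacked the coverage that E16.5 het had.

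In the gene-poorest of the 4 groups of 1 Mb windows, covered length at P0 was 0.958 times that at E16.5 in het and 1.04 times in KO. These values were flagged for lying on opposite sides of 1. In both genotypes, however, this group had the lowest ratio of the 4. Over all autosomes the ratios were 1.06 in het and 1.21 in KO, so the pattern across groups was alike. None of these differences was tested, since each group had 1 list.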

How the results depend on the processing

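Of 52 values recomputed under another setting, 18 moved beyond their interval or rounding or, for counts, by over 1.5 times. Only ratios could turn direction by this rule, to the other side of 1, and none did. The other 34 stayed within these bounds. Among them were the values with peaks joined under 1 kb apart, which could not change. Requiring an overlap of 50% of a peak's own length gave 27.2% gone and 35.4% new. Leaving out peaks of the shortest length gave 19.8% gone, 27.4% new, a median length ratio of 1.015 for pairs matched 1 to 1 and 30.96% of new peaks in gene bodies, and 1992 P0 peaks that united E16.5 peaks. The longest peaks in equal numbers gave 25.02% gone, 25.04% new, a covered-length ratio of 1.03 and a median pair ratio of 1.023. With chromosomes X and Y 21.4% were gone. Joining peaks under 3 kb apart, added after seeing the data, gave 20.6% gone, 27.6% new and a median pair ratio of 1.015. Counting any gene overlap of 1 bp put 33.1% of new peaks in gene bodies. With 5 kb added on each side of a gene 1225 genes gained and 706 lost, with a 3-fold rule 565 and 342, and with a minimum difference of 5 kb 200 gained and 80 lost. Without Ddx4 and Slc38a9 488 genes lost. Joining peaks under 1 kb apart changed nothing, because no gap was that short.

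No paired analysis was possible because each group had 1 pooled list, and leaving out each replicate could not be run for the same reason. Unknown read depth and calling thresholds limit every comparison of peak number and length between stages.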

Other observations

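Other miRNA hairpins that changed state fell into a few named sites. Mir341 and Mir1188, neighbours in the imprinted Dlk1 and Dio3 region of chromosome 12, were covered at P0 and P3 and not at E13.5 or E16.5, in het and KO alike. Mir495 of the same region was covered by 63 bases in E16.5 het, by 8 bases in E13.5 KO and by none in the other 6 lists. Mir135b was wholly covered (97 bases) at E13.5, P0 and P3 in het, and in KO at E13.5 and P3 but not at P0. It was at 0 at E16.5 in both genotypes.

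The 58 CG-rich promoter windows that touched a het peak at P0 and not at E16.5 included that of Spata22, a gene of meiotic recombination, with 25 CG dinucleotides. It was wholly covered (300 bases) at E13.5 in het and KO, by 85 bases at P0 in het and by 0 at P0 in KO. Others were Hus1, a DNA damage checkpoint gene with 21 CG dinucleotides, and Cdk13, a transcriptional kinase gene with 52, both with 300 bases covered at P0 in het. Hus1 was also covered in P0 and P3 KO, and Cdk13 in no other list. These genes were picked after their values were seen.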
